A study of Mus musculus with 20 samples.

Results

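CFU-E, progenitors in bone marrow that are committed to making red cells, were compared between mice with and without a mutation of the splicing factor Srsf2 after their red cells had been destroyed. The comparison holds 10 of the 20 RNA-sequencing libraries of the study, all those from mice given phenylhydrazine (PHZ), a drug that oxidises haemoglobin and lyses red cells. In it, 5 libraries came from Mx1-Cre Srsf2P95H/+ mice (called P95H), which carry a heterozygous proline-to-histidine change, and 5 from Mx1-Cre mice, which carry the same Cre transgene and no Srsf2 mutation. Each mouse was injected under the skin with 30 mg/kg PHZ on day 0 and again on day 1, and its cells were sorted on day 4. The other 10 libraries came from mice of the same 2 genotypes, 5 each, given saline (PBS). They enter here to estimate the spread and to set the PHZ values beside those of other mice.

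In Mx1-Cre mice, the Cre recombinase is driven by the Mx1 promoter, which responds to interferon and is active in many cell types, so the allele is not limited to the red cell lineage. The labels give each library its own animal number and name no age, sex, strain or batch. The p-values rest on the spread between those animals.

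Srsf2 belongs to the SR proteins, which bind exons of a pre-mRNA and help the spliceosome to include them. The P95H change is recurrent in myelodysplasia and related blood cancers with failing red cell production, and it is known to shift the RNA motifs the protein prefers. CFU-E depend on erythropoietin, divide a few times and turn into haemoglobin-filled erythroblasts, and PHZ anaemia drives this process hard. The title of the study names impaired red cell formation, mTORC1 signalling and missplicing of the kinase Fyn. The values used here are per gene and show no splicing.

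The proline codon that the mutation changes lies in coding exon 1 of the 3 exons of Srsf2, at chr11:116852645-116852647 on the minus strand of GRCm38. The normal sequence is shown because this codon is what sets the genotypes apart. It spans chr11:116852618-116852674, reads 5′ to 3′ along the coding strand over codons 86 to 104, comes from GENCODE vM21, and has codon 95 in capitals.
Srsf2 codons 86 to 104: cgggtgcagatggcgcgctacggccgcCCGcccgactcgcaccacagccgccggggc

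Values are labelled a normalised expression signal. They are whole steps of 0.01 times 1 factor per library, the form of TPM values (per length of transcript and per library total) scaled by the authors. This type is an inference from the values, and the depth behind the values is unknown. Their sums in the 10 PHZ libraries ran from 924763 to 1035490, and 10364 to 10755 entries reached a value of 1. Sorting markers fitted the gate: Kit stood at 40.9 to 71.9 and Eng (CD105) at 84 to 103. Ly6a (Sca-1) reached 1.07 at most, Itga2b (CD41) 1.17 and Slamf1 (CD150) 0.16. Of the other markers meant to be low, Fcgr3 reached 1.45 and Fcgr2b 0.667. Fcgr3 is also among the granulocyte and monocyte markers. Granulocyte and monocyte RNA was present in all 10 PHZ libraries. The summed level of its 30 marker genes was 163 to 1150 in Mx1-Cre (median 214) and 176 to 648 in P95H (median 421), highest in Mx1-Cre replicate 5. Of the 24 markers that passed the filter on low values, 0 differed between the genotypes.

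Of 10890 genes tested, 596 (5.47%) differed between P95H and Mx1-Cre after PHZ, 120 higher (1.1%) and 476 lower (4.37%). The test was limma on log2(value + 1) with a Benjamini-Hochberg adjusted p under 0.05, for genes that reached a value of 1 in 5 or more of the 20 libraries. Differences were small. Their median size among the called genes was 0.321 on the log2 scale, 44 genes were higher and 43 lower by more than 0.5, and 4 passed 1. Those 4, named after their values were seen, were the predicted gene Gm10051 (1.06, higher), the ribosomal protein pseudogene Rps4l (-1.23), the predicted gene Gm10131 (-1.02) and the RNA-binding protein Khdrbs3 (-1.03). The last fell from 4.46 ± 1.46 to 1.71 ± 0.880 (SD, n = 5 each, limma adjusted p = 0.0102). The groups did not overlap, every P95H library lying on the same side of every Mx1-Cre library, for 757 genes (6.95%), 171 higher (1.57%) and 586 lower (5.38%).

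The balance of higher and lower genes depended on how the libraries were scaled. Lower genes made up 79.9% of the calls on the deposited values, 55.1% with TMM factors, 55.8% after quantile normalization, 51.7% with median-of-ratios factors, 49% with upper-quartile factors, 46.9% when each library was set to the same sum and 40.1% when each was centred on its median log2 value. Lower calls numbered 476 on the deposited values and 123 to 190 under the other 6 scalings. Higher calls ranged from 120 to 205. The median log2 difference of all genes was -0.0537 as deposited, and the other scalings moved it up by 0.0513 to 0.0723. The authors' own factors differed between the groups. They averaged 0.995 in Mx1-Cre (0.964 to 1.04) and 0.954 in P95H (0.94 to 0.984), a log2 difference of -0.0605 (exact two-sided permutation test, p = 0.0317). A set of 183 genes was called under all 7 scalings, 83 higher (0.762%) and 100 lower (0.918%). In what follows, a gene is called stable where it belongs to this set.

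**Figure D1:**
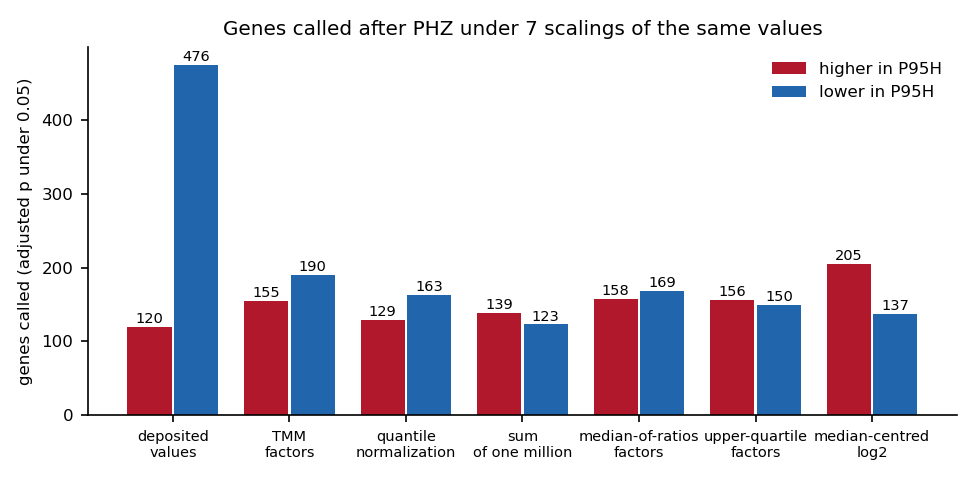
Number of genes called higher (red) or lower (blue) for P95H against Mx1-Cre after PHZ, with the deposited values and 6 other scalings of them. The 476 lower calls on the deposited scale become 123 to 190 under the others, while higher calls range from 120 to 205.

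Single libraries also weighed on the counts. Without Mx1-Cre replicate 3 the test called 70 genes higher and 249 lower, and without P95H replicate 3 it called 78 and 253. Without Mx1-Cre replicate 5, the library with the most granulocyte RNA, 312 were lower.

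**Figure D2:**
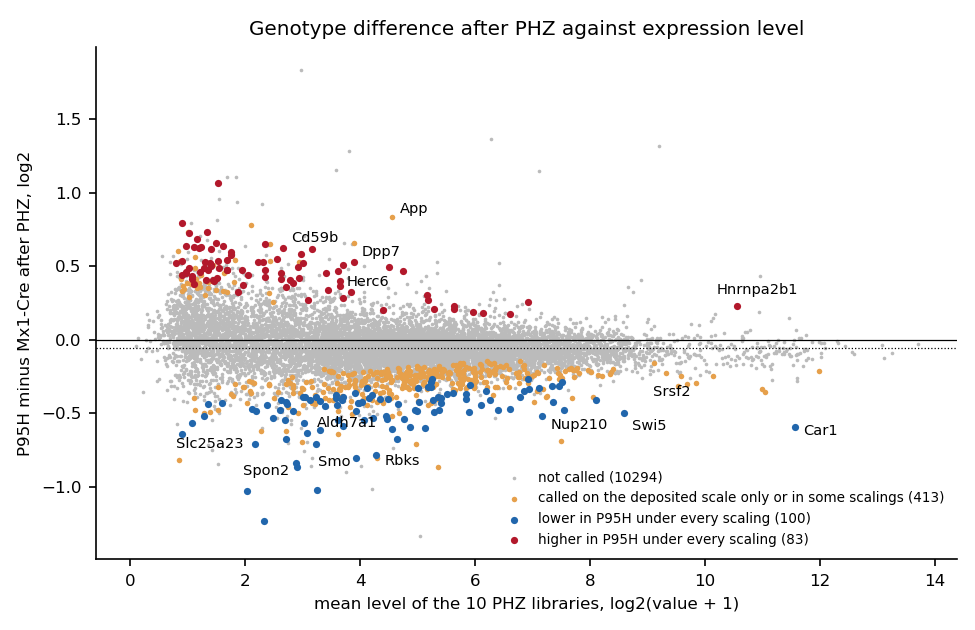
Log2 difference (P95H minus Mx1-Cre after PHZ) of each of the 10890 genes against its mean level in the 10 PHZ libraries as log2(value + 1). Blue and red points are the 100 lower and 83 higher genes called under all 7 scalings, orange points the other calls, and the dotted line is the all-gene median of -0.0537.

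Srsf2 RNA itself was 1.17-fold lower in P95H on the deposited scale. The gene (chr11:116849901-116853094, GRCm38) stood at 698, 631, 673, 695 and 727 in Mx1-Cre replicates 1 to 5 and at 590, 567, 610, 599 and 564 in P95H. All 5 mutant libraries lay below all 5 controls. The log2 difference was -0.22 (SE 0.0547, limma adjusted p = 0.0188). It was -0.168 to -0.149 under the other 6 scalings, none of which called it, and it also missed the threshold without Mx1-Cre replicate 5 (adjusted p = 0.0515). Exons of Srsf2 overlap those of Mettl23 on the opposite strand by 460 bases. Whether strand was used in counting is not stated, and if it was not, reads from the shared bases cannot be told apart. Mettl23 itself differed by 0.01 (adjusted p = 0.939).

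Fyn, a kinase of the Src family that signals below the erythropoietin receptor, did not differ in its level. It stood at 5.87, 6.55, 7.38, 6 and 7.68 in Mx1-Cre and at 6.69, 6.56, 6.45, 7.4 and 5.87 in P95H. The groups overlapped fully, and the log2 difference was -0.02 (SE 0.0953, adjusted p = 0.949), turning to 0.0232 to 0.0568 under the other scalings. Ezh2, Ints3, Casp8 and Bcor, which have been reported as splicing targets of mutant SRSF2, did not pass either. Ezh2, the methyltransferase of the Polycomb complex, averaged 162 ± 4.88 and 158 ± 8.64, and Ints3 of the Integrator complex 49.1 ± 2.84 and 48.6 ± 1.73 (SD, n = 5 each). The caspase Casp8 averaged 25.8 ± 1.58 in Mx1-Cre and 24.1 ± 1.59 in P95H, and the corepressor Bcor 33.6 ± 3.59 and 32.5 ± 3.53. Their log2 differences lay between -0.09 and -0.01. Those of Ezh2, Ints3 and Bcor changed sign under each of the other 6 scalings.

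Among the other SR proteins, 0 of the 11 measured besides Srsf2 passed, although 11 of the 12 lay below 0. Their median log2 difference was -0.106 on the deposited scale and -0.0502 to -0.0335 under the others, beside -0.0537 for all genes. Srsf3 missed narrowly (965.5 against 845, adjusted p = 0.0534). Of the kinases and cofactors of SR proteins, 1 of 13 passed (7.69%, beside 5.47% of all genes): Clk3, which phosphorylates SR proteins. It stood at 40.7, 41, 37.2, 38.1 and 37.8 in Mx1-Cre and at 32.6, 26.5, 29.1, 28.3 and 37.5 in P95H. Only P95H replicate 5 reached the control range. The log2 difference was -0.34 (SE 0.0676, adjusted p = 0.0058), and the call was lost when each library was set to the same sum. Exons of Clk3 overlap those of Edc3 on the opposite strand.

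The hnRNP proteins, which often oppose SR proteins at exons, gave 1 gene higher and 1 lower of 25 (8%, beside 5.47% of all genes). Hnrnpa2b1, an abundant member, stood at 1360, 1370, 1360, 1400 and 1460 in Mx1-Cre and at 1690, 1510, 1660, 1530 and 1750 in P95H. All mutant libraries were above all controls. Its log2 difference of 0.23 (SE 0.0566, adjusted p = 0.0209) was called under every scaling and in 6 of the 10 fits that left out 1 PHZ library, with a highest adjusted p of 0.0585. Hnrnpdl was lower (303 ± 10.9 against 257 ± 14.8, log2 difference -0.24, adjusted p = 0.0323), but not under any other scaling. In the core spliceosome, 2 of 48 genes were lower (4.17%, beside 4.37% of all genes). They were the helicases Ddx46 of the U2 particle (143 against 123, -0.22, adjusted p = 0.00453) and Ddx41 (55.6 against 49.4, -0.17, adjusted p = 0.0423). Ddx46 kept its call under 3 of the 6 other scalings and Ddx41 under none. Of the 18 factors of nonsense-mediated decay, which degrades RNAs with early stop codons, 0 passed, beside 5.47% of all genes. The nearest was Smg9 (31.9 against 27.6, adjusted p = 0.0938).

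The genes that fell most were spread over many roles. The smallest p-values belonged to Rbks, Aldh7a1, Nup210, Cars2 and Swi5, each with a limma adjusted p of 4.61e-05. Rbks, the ribokinase that phosphorylates ribose (chr5:31624439-31697627), stood at 25.8, 22.7, 20.9, 21 and 26.8 in Mx1-Cre and at 15.2, 10.3, 11.9, 14.8 and 14.2 in P95H. No library of 1 group entered the range of the other, and the log2 difference was -0.78 (SE 0.0909). Nup210, a membrane protein of the nuclear pore (chr6:91013068-91116829), stood at 165, 179, 178, 163 and 156 in Mx1-Cre and at 128, 117, 113, 113 and 113 in P95H. Here too the groups were apart, with a log2 difference of -0.52 (SE 0.0574). Swi5, a protein of homologous recombination (chr2:32278816-32288075), stood at 448, 423, 455, 425 and 502 in Mx1-Cre. In P95H it stood at 340, 303, 305, 332 and 311, all below the controls (-0.50, SE 0.0582). Aldh7a1, the aldehyde dehydrogenase of lysine breakdown, averaged 25.3 ± 1.05 and 17.1 ± 1.46 (-0.54, SE 0.059). Cars2, the tRNA synthetase that loads cysteine in mitochondria, averaged 35.8 ± 1.42 and 25.3 ± 1.61 (SD, n = 5 each; -0.48, SE 0.0549). These 5 genes were stable and kept their call in every fit that left out 1 PHZ library. Exons of Cars2 share 422 bases with Naxd on the opposite strand. Naxd, the dehydratase that repairs hydrated NADH, moved the other way, from 31.2 ± 1.75 to 38.8 ± 2.43 (0.31, SE 0.0543, adjusted p = 0.00302).

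By size, the 15 lower genes named by rule had log2 differences of -0.87 to -0.60. The largest was Spon2, a secreted matrix protein, at 7.67, 8.9, 9.72, 6.55 and 10.3 in Mx1-Cre and 4.57, 3.99, 3.49, 6.3 and 3.29 in P95H (-0.87, SE 0.133, adjusted p = 0.00089). Its groups did not overlap, though P95H replicate 4 came close to Mx1-Cre replicate 4. Smo, the membrane protein that transmits Hedgehog signals (chr6:29735503-29761365), stood at 18.5, 15.9, 21.5, 16.7 and 18.4 in Mx1-Cre and at 10.9, 8.76, 10.5, 11.6 and 8.42 in P95H. Every mutant library was below every control (-0.80, SE 0.102, adjusted p = 0.000139). The soluble epoxide hydrolase Ephx2 averaged 8.52 ± 1.82 and 4.3 ± 0.901 (-0.84, adjusted p = 0.00245). Nthl1, a glycosylase that removes oxidised bases from DNA, averaged 7.05 ± 0.876 and 4.02 ± 0.429 (-0.68, adjusted p = 0.000139). Adgrl1, an adhesion receptor, averaged 9.3 ± 0.581 and 5.64 ± 0.713 (-0.64, adjusted p = 0.000139). Spata5l1 averaged 10.6 ± 0.85 and 6.14 ± 1.07 (-0.71, adjusted p = 0.00323), and its entry is annotated as a processed transcript, not as protein-coding. Cryl1, Cnn3 and Trappc6a were each lower by 0.60 on the log2 scale (adjusted p = 0.000537, 0.00418 and 0.00568).

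The remaining 5 of the 15 were less secure. Marcksl1, an actin-binding substrate of protein kinase C, lost its call after quantile normalization and without Mx1-Cre replicate 3 (14.1 against 8.48, -0.64, adjusted p = 0.0155, then 0.0521 without that library). The serine protease Prss50 (-0.71), the endothelial gene Plvap (-0.62), the sulfotransferase Chst10 (-0.70) and the histone gene Hist1h2ap (-0.69) were each lost under at least 4 of the 6 other scalings and in at least 5 of the 10 fits without 1 library. Hist1h2ap also has near-identical copies between which reads may be divided.

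**Figure D3:**
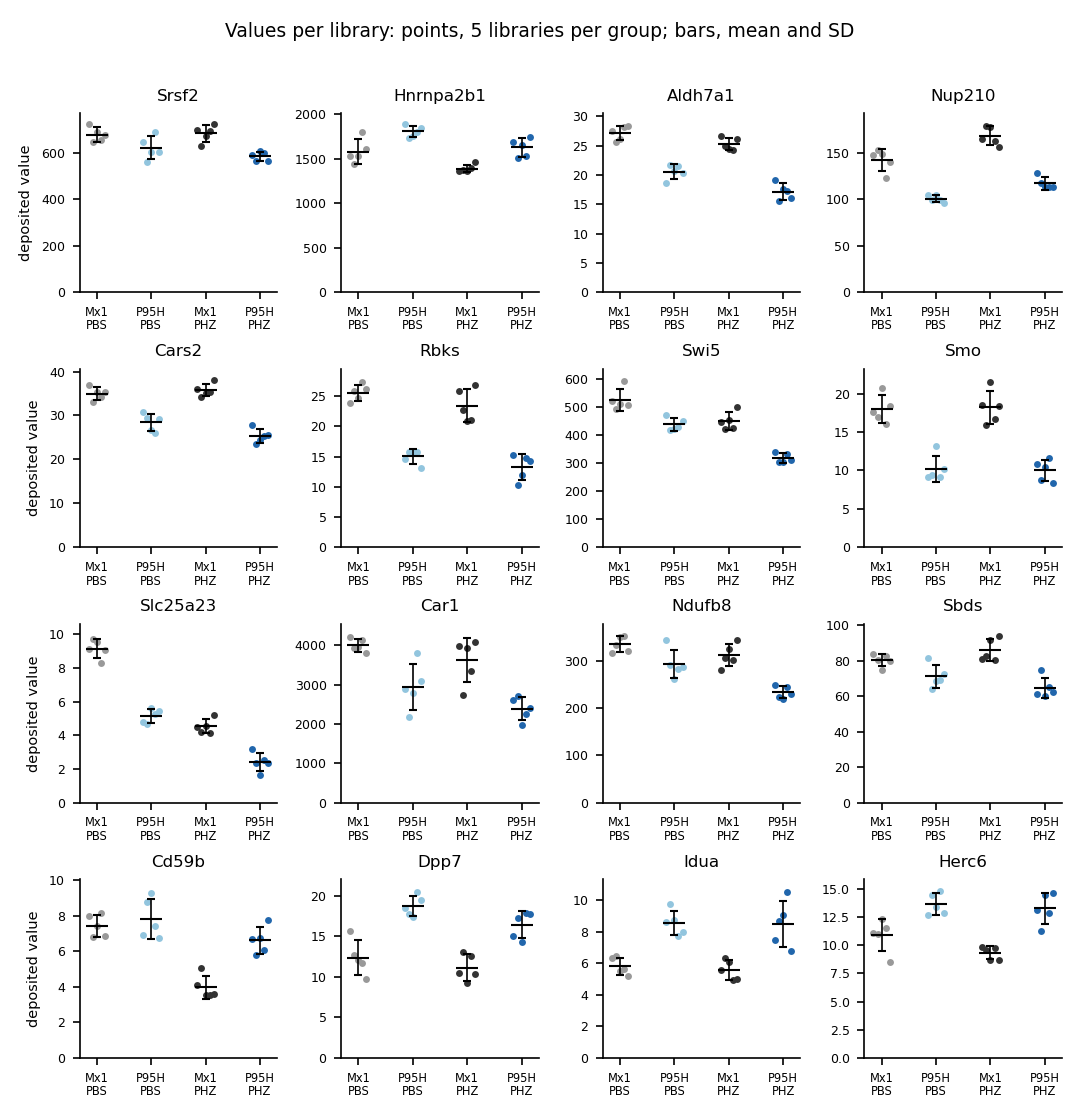
Deposited values of 16 genes in all 20 libraries, 5 per group, on linear axes that start at 0; points are libraries and bars the mean and SD. After PHZ the mutant points lie apart from the controls in each panel, below them for Srsf2 and from Aldh7a1 to Sbds, and above them for Hnrnpa2b1 and the 4 genes of the bottom row.

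The genes that rose were for the most part weakly expressed. The higher genes had a median level of 2.37 and the lower ones 30.9, over the protein-coding calls, beside 25.2 for all protein-coding genes tested. The 15 largest higher differences with a mean of at least 5 lay between 0.41 and 0.83. Cd59b, an inhibitor of complement on the cell surface, stood at 4.11, 5.07, 3.51, 3.54 and 3.6 in Mx1-Cre and at 6.69, 5.78, 6.76, 6.08 and 7.78 in P95H. All mutant libraries were higher (0.62, SE 0.0994, adjusted p = 0.00123). Its neighbour Cd59a is a close copy, so how reads were divided between them is uncertain. Dpp7, a peptidase of vesicles and lysosomes, stood at 10.5, 13, 9.2, 12.6 and 10.3 in Mx1-Cre and at 15, 17.2, 14.3, 17.8 and 17.7 in P95H, again with no overlap (0.53, SE 0.102, adjusted p = 0.00453). The lysosomal iduronidase Idua averaged 5.56 ± 0.619 and 8.48 ± 1.43 (0.52, adjusted p = 0.00386), and its exons overlap Dgkq and Slc26a1 on the opposite strand. Eldr, a long noncoding RNA, averaged 6.04 ± 0.501 and 9.82 ± 1.34 (0.61, adjusted p = 0.00613), and the helicase Dqx1 5.33 ± 1.24 and 8.37 ± 0.805 (0.58, adjusted p = 0.00709). These 5 genes and Herc6, described below, kept their calls under all scalings and in every fit without 1 library.

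The largest of the 15 was less stable. App, the amyloid precursor protein, stood at 21.4, 21.7, 12.1, 10.7 and 14.6 in Mx1-Cre and at 30.4, 24, 34.8, 33.7 and 21.1 in P95H. P95H replicate 5 lay within the control range (0.83, SE 0.238, adjusted p = 0.0473), and the call was kept in 3 of the 10 fits without 1 PHZ library. The other 8 were Phldb1 (0.53), Tmem40 (0.51), the linker histone Hist1h1c (0.50), Spata13 (0.49), the zinc finger gene Zfp97 (0.45), the serpin Serpinb6a (0.45), the chemokine Ccl27a (0.42) and Pcbp3 (0.41), with adjusted p from 0.018 to 0.0491. Pcbp3 kept its call in 9 of those 10 fits, the others in 3 to 6.

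Of the called genes of the red cell programme, Car1, carbonic anhydrase 1, differed most in size. It is among the most abundant RNAs of these cells and was, like Klf1 below, also among the genes that define them. It stood at 3980, 2750, 3930, 3360 and 4100 in Mx1-Cre and at 2610, 2710, 1980, 2260 and 2410 in P95H. Each mutant value was below each control, the closest pair being 2710 and 2750. Car1 was 1.51-fold lower (-0.59, SE 0.121, adjusted p = 0.00709) and stable. Of 23 genes of late erythroid maturation, 3 were lower and 0 higher (13%, beside 4.37% of all genes lower). The others were the red cell pyruvate kinase Pklr (353 ± 18.5 against 303 ± 15.2, -0.22, adjusted p = 0.0087) and Tmcc2 (8.16 ± 0.764 against 5.86 ± 1.59, -0.44, adjusted p = 0.047). No other scaling called Pklr or Tmcc2, and each of the 6 other scalings called only 1 gene of the list lower. The median of the list was -0.093, and -0.0376 to 0.00944 under the other scalings.

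The globins did not differ, and they varied more among the mutant mice than among the controls. Hbb-bs, an adult beta globin, stood at 447, 379, 273, 434 and 327 in Mx1-Cre and at 774, 272, 591, 214 and 1020 in P95H. Replicates 1, 3 and 5 of P95H were above all controls and replicates 2 and 4 below them (0.41, SE 0.368, adjusted p = 0.57). Hba-a2 put the P95H libraries in the same order, with 661, 406 and 862 in replicates 1, 3 and 5 and 340 and 226 in replicates 2 and 4 (adjusted p = 0.549). Its controls stood at 409, 380, 294, 401 and 318, so P95H replicates 2 and 3 lay within their range. Globin genes have near-identical copies, and how reads were divided between them is not stated. After PBS the SD was larger in Mx1-Cre than in P95H, at 133 and 94.5 for Hbb-bs and 136 and 102 for Hba-a2. The difference in spread was not tested.

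Among 23 erythroid transcription factors, 1 was lower (4.35%, beside 4.37% of all genes). This was the corepressor Cbfa2t3 (24.3 ± 2.7 against 19 ± 2.46, -0.34, adjusted p = 0.0343), and no other scaling called it. Klf1, the activator of beta globin, which was among the genes that define the sorted cells, ranged from 356 to 391 in Mx1-Cre and from 289 to 354 in P95H, without overlap, and missed the threshold (-0.22, adjusted p = 0.0568). Gata1 averaged 216 ± 17.3 and 203 ± 22.6 (adjusted p = 0.475). Of 18 genes of haem synthesis and breakdown, 1 was lower and stable (5.56%, beside 4.37% of all genes lower). This was Blvra, the reductase that turns biliverdin into bilirubin. It averaged 50.4 ± 2.96 and 39 ± 4.87 (-0.37, SE 0.0657, adjusted p = 0.00323). None of 20 genes of iron uptake and none of 31 of the red cell membrane passed on the deposited scale, beside 5.47% of all genes. Cd47, the signal that protects red cells from being engulfed, averaged 354 ± 26.8 and 416 ± 30.1 (0.23, adjusted p = 0.06), and was called higher under each of the other 6 scalings.

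Erythropoietin acts through its receptor, Jak2 and Stat5, and 0 of 19 genes of this response passed, beside 5.47% of all genes. Stat5b averaged 47.4 ± 3.77 and 40.5 ± 3.2 (-0.22, adjusted p = 0.06), and the Stat5 target Socs2 4.42 ± 1.09 and 5.87 ± 0.95 (0.35, adjusted p = 0.111). The phosphatase Ptpn6, which switches the receptor off, was above the controls in all 5 mutant libraries (50.5 ± 1.47 against 55.1 ± 2.78, 0.12, adjusted p = 0.245). Of the 16 Src family kinases and their regulators, 0 passed, and their median of -0.0535 lay beside -0.0537 for all genes.

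mTORC1 is the kinase complex that ties growth to nutrients and growth factors. None of its 46 measured components and regulators passed on the deposited scale, beside 5.47% of all genes. Their median log2 difference of -0.0526 lay beside -0.0537 for all genes. The smallest p belonged to Nprl3, a subunit of the GATOR1 complex, which restrains mTORC1 when amino acids are short. Nprl3 stood at 21.8, 17.1, 17, 21.1 and 18.8 in Mx1-Cre and at 24.9, 18.8, 25.2, 23.3 and 26.3 in P95H. Only P95H replicate 2 lay within the control range. The log2 difference was 0.29 (SE 0.0892, adjusted p = 0.0591), and 0.343 to 0.371 under the other 6 scalings, each of which called it higher. Exons of Nprl3 overlap those of Mpg on the opposite strand. Sesn2, a stress-induced inhibitor of mTORC1, averaged 10 ± 0.932 and 8.36 ± 0.843 (-0.24, adjusted p = 0.113). Rragc, a GTPase that carries mTORC1 to the lysosome, averaged 42.6 ± 1.18 and 38.7 ± 3.2 (-0.14, adjusted p = 0.13).

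Of 95 genes known to respond to mTORC1, 2 were lower and 0 higher (2.11% called, beside 5.47% of all genes). They were Pfkl, a phosphofructokinase of glycolysis, and Dhcr7, which makes cholesterol from its last precursor. Pfkl stood at 65.5, 67.8, 70.7, 68 and 72.4 in Mx1-Cre and at 58.1, 50.8, 54, 57 and 57.4 in P95H, without overlap (-0.31, SE 0.0582, adjusted p = 0.00417), and lost its call only when each library was set to the same sum. Dhcr7 averaged 41 ± 7.74 and 29.7 ± 4.42 (-0.44, SE 0.105, adjusted p = 0.0163) and kept its call under 1 of the 6 other scalings. The median of the 95 genes was -0.0972, and -0.0414 to -0.0249 under the other scalings.

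The cholesterol pathway had the lowest median of any list with at least 4 measured genes. Dhcr7 was the only 1 of its 28 genes to pass (3.57%, beside 5.47% of all genes). Of the 28 genes, 24 lay below 0, and the median was -0.246, beside -0.0537 for all genes. Under the other scalings it was -0.192 to -0.167, and after PBS it was -0.0388. A further 2 members with low values, chosen after they were seen, had wide errors: Cyp51 (-0.41, SE 0.169, adjusted p = 0.159) and Fdft1 (-0.36, SE 0.138, adjusted p = 0.128). Insig2, which holds back the pathway's activator, lay highest at 0.26 (adjusted p = 0.0868). Among 31 genes of glycolysis, 3 were lower, Pfkl, Pklr and the muscle-type phosphofructokinase Pfkm (154 ± 7.09 against 136 ± 7.77, -0.17, adjusted p = 0.049), which is 9.68% beside 4.37% of all genes. Pfkm was called under none of the 6 other scalings and in 3 of 10 fits without 1 library, and those scalings called 0 to 1 genes of the list lower.

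Ribosome biogenesis showed a similar form, with 53 of 58 genes below 0 and a median of -0.137 (-0.0816 to -0.0645 under the other scalings). All genes had a median of -0.0537 on the deposited scale, so a lean below 0 is not particular to this list. Heat shock chaperones (29 of 31 below 0) and the core spliceosome (43 of 48) leaned that way too. The 1 gene of ribosome biogenesis that passed (1.72%, beside 5.47% of all genes) was Sbds, which frees the large ribosomal subunit for translation. It stood at 81.3, 82.9, 91.9, 80.5 and 94.3 in Mx1-Cre and at 61.2, 74.6, 60.3, 65.3 and 62.3 in P95H. All mutant values were lower (-0.41, SE 0.0671, adjusted p = 0.00157), and the call was stable. After PBS the median of the list was 0.0267. Of 82 cytosolic ribosomal proteins, 1 was lower (1.22%, beside 4.37% of all genes). This was Rpl35 (2250 ± 181 against 1780 ± 136, -0.34, adjusted p = 0.0287), which was lost under 4 of the 6 other scalings and has processed copies in the genome. Of 49 translation factors, 3 were lower (6.12%, beside 4.37% of all genes), Eif1, Pelo and Eif4g3. Their adjusted p ran from 0.0261 to 0.0417, and no other scaling called any of them.

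**Figure D4:**
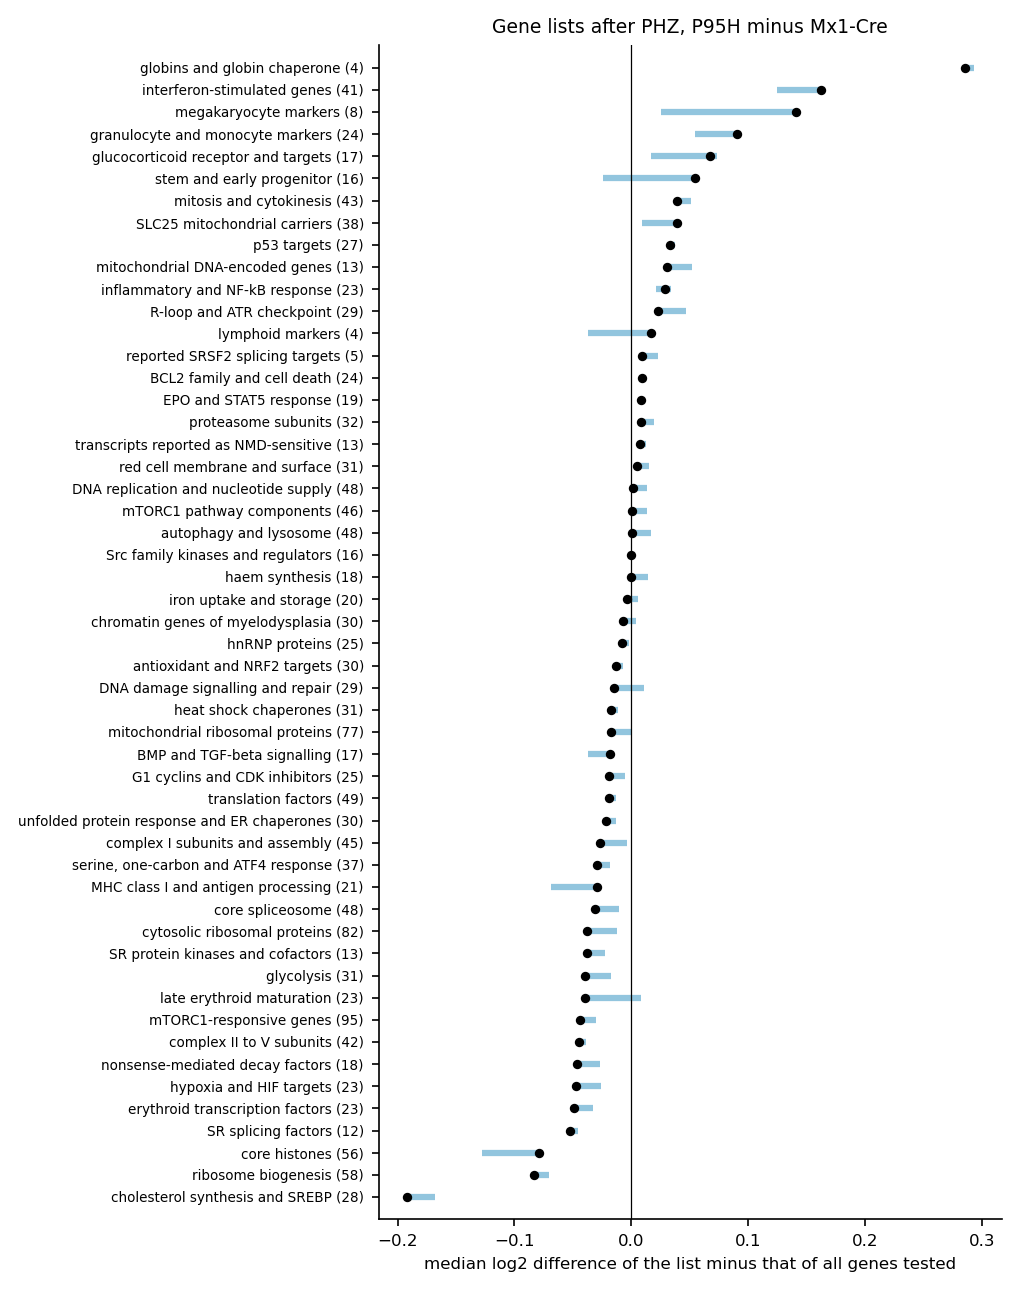
Median log2 difference of each gene list with at least 4 measured genes, minus the all-gene median, after PHZ; black points are the deposited values, blue bars span the 7 scalings, and the number of measured genes is in brackets. Cholesterol synthesis lies lowest, ribosome biogenesis and core histones come next, in an order that changes with the scaling, and the globins and interferon-stimulated genes lie highest.

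In mitochondria, complex I takes electrons from NADH into the respiratory chain. Of 45 of its subunits and assembly factors, 4 subunits, all of the membrane arm, were lower and 0 higher (8.89%, beside 4.37% of all genes lower). The list does not hold every assembly factor. Nubpl (-0.45), Timmdc1 (-0.41) and Dmac2 (-0.58) are among those it leaves out and were lower (adjusted p = 0.00386, 0.0058 and 0.000607). They were chosen after their values were seen, and the other factors left out were not counted. These genes therefore add nothing to the share above. Ndufb8 stood at 282, 307, 325, 303 and 344 in Mx1-Cre and at 250, 224, 220, 246 and 230 in P95H. Ndufb2 stood at 144, 117, 130, 134 and 150 in Mx1-Cre and at 104, 102, 109, 110 and 107 in P95H. Neither gene had a mutant library within the control range. They were lower by 0.41 (SE 0.0652, adjusted p = 0.00122) and 0.34 (SE 0.059, adjusted p = 0.00248) on the log2 scale, and both were stable. Ndufb11 (140 against 118, adjusted p = 0.0343) and Ndufb4 (80.7 against 68.3, adjusted p = 0.0418) were not called under any other scaling. The median of the list was -0.0802, and -0.0247 to -0.00326 under the others, close to that of all genes. Exons of Ndufb2 overlap those of Braf on the opposite strand.

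Of the 42 subunits of complexes II to V, 2 were lower (4.76%, beside 4.37% of all genes). They were Atp5j (320 ± 23.1 against 270 ± 19.7, adjusted p = 0.0404) and Cox6a1 (816 ± 69.5 against 660 ± 94.7, adjusted p = 0.0463), and no other scaling called either. Of 38 carriers of the SLC25 family, which move metabolites across the inner membrane, 2 were lower (5.26%, beside 4.37% of all genes). Slc25a23, which exchanges ATP for phosphate, stood at 4.52, 4.21, 4.56, 4.17 and 5.24 in Mx1-Cre and at 3.19, 2.33, 1.66, 2.56 and 2.36 in P95H, far apart (-0.71, SE 0.0948, adjusted p = 0.000206). The aspartate-glutamate carrier Slc25a13 averaged 13.6 and 10.2 (-0.38, adjusted p = 0.00718) and lost its call only at equal sums. Of the 13 genes encoded in mitochondrial DNA, 0 passed, beside 5.47% of all genes. Of 77 mitochondrial ribosomal proteins, 1 passed (1.3%), Mrpl53 (73.9 ± 3.1 against 61.8 ± 1.8, -0.25, adjusted p = 0.0117), on the deposited scale alone.

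Among 29 genes of DNA damage signalling and repair, 4 were lower and 0 higher (13.8%, beside 4.37% of all genes lower). The median of the list was -0.0683, and -0.0142 to 0.0116 under the other scalings, which called 0 to 2 of them lower. Xrcc6, the Ku70 protein that binds broken DNA ends, stood at 127, 126, 126, 128 and 132 in Mx1-Cre and at 120, 111, 107, 107 and 101 in P95H, with no overlap (-0.23, SE 0.0451, adjusted p = 0.00539). Its partner Xrcc5 (Ku80) was lower by 0.16 on the log2 scale (adjusted p = 0.0279), and Rnf8, a ubiquitin ligase at breaks, by 0.25 (adjusted p = 0.00986). Xrcc6 was called under 4 of the 6 other scalings, and Rnf8 and Xrcc5 under none. Rnaseh2a, a subunit of the enzyme that removes RNA from RNA-DNA hybrids, was the only 1 of 29 genes of the R-loop and ATR list to pass (3.45%, beside 5.47% of all genes). It was higher (110 ± 11.6 against 131 ± 10.3, 0.26, adjusted p = 0.047) and kept the call in 2 of 10 fits without 1 library. Its exons overlap those of the abundant Prdx2.

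Few cell cycle and death genes passed. None of 48 genes of DNA replication, 43 of mitosis, 27 p53 targets and 24 of the BCL2 family and cell death passed on the deposited scale, beside 5.47% of all genes. Ccng1, a p53 target, averaged 71.5 ± 4.01 and 80.2 ± 4.5 (0.16, adjusted p = 0.106) and was called higher under 5 of the 6 other scalings. Of 25 G1 cyclins and inhibitors, 1 was lower (4%, beside 4.37% of all genes), Ccnd1 (cyclin D1), which is barely expressed here. It stood at 0.466, 1.03, 2.75, 1.13 and 1.26 in Mx1-Cre and at 0.173, 0.623, 0.15, 0.177 and 0.207 in P95H. P95H replicate 2 overlapped the controls (-0.82, SE 0.204, adjusted p = 0.0214). The call was lost when libraries were median-centred and when 5 in place of 1 was added to each value before the log2. It was also lost without Mx1-Cre replicate 3 or P95H replicate 3. Exons of Ccnd1 share 1100 bases with LTO1 on the opposite strand, whose mean level was 18.4. If strand was not used in counting, reads from the shared bases cannot be told apart.

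Interferon-stimulated genes lay above the median of all genes, with 31 of 41 above 0 and a median of 0.108, or 0.125 to 0.18 under the other scalings. Herc6, which attaches the ubiquitin-like protein ISG15, was the 1 member to pass (2.44%, beside 1.1% of all genes higher). It stood at 9.82, 9.6, 8.66, 9.79 and 8.73 in Mx1-Cre and at 13.1, 11.3, 14.5, 12.9 and 14.6 in P95H, with no overlap (0.46, SE 0.0839, adjusted p = 0.00327), and was stable. After PBS the median of the list was 0.337. In those PBS mice the granulocyte and monocyte markers had a median log2 difference of 0.8, with 0 of 24 below 0 and a median sum of 1540 in P95H and 678 in Mx1-Cre, and the lymphoid markers had a median of 0.502. Their part in the values of the interferon genes was not tested. Of the heat shock chaperones, 1 of 31 was lower and stable (3.23%, beside 4.37% of all genes lower). This was Bag3, a cochaperone of HSP70 (13.6 ± 0.474 against 10.2 ± 0.702, -0.39, adjusted p = 0.00327). Nfe2l2, the regulator NRF2 of the response to oxidants, was lower (126 ± 4.52 against 105 ± 8.55, -0.26, adjusted p = 0.00864). It was the only 1 of 30 genes of that list to pass (3.33%) and kept the call under 1 of the 6 other scalings. The ER stress gene Herpud1 was lower (39 ± 2.63 against 31 ± 3.3, -0.32, adjusted p = 0.0249) on the deposited scale alone.

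Other lists held few calls. Autophagy and lysosome gave 2 of 48 lower (4.17%, beside 4.37% of all genes), Becn1 (114 against 103) and the protease Ctsb (197 against 165). The chromatin genes of myelodysplasia gave 2 of 30 lower (6.67%), Ddx41 and the dehydrogenase Idh2 (79.2 against 68.1). Among core histones, 1 of 56 was higher and 1 lower (3.57% called, beside 5.47% of all genes). The glucocorticoid-induced kinase Sgk1 was the only 1 of 17 of its list to pass (5.88%; 1.58 against 2.6, higher). With the exception of Sgk1 and Hist1h1c, no other scaling called any of them. None passed among 32 proteasome subunits, 37 genes of serine metabolism and the ATF4 response, 23 of hypoxia, 21 of antigen processing, 23 of inflammation, 17 of BMP signalling and 16 of early progenitors. The share over all genes was 5.47%.

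The same genotypes were compared in other mice, given PBS, with no library shared. There 161 genes (1.48%) differed, 39 higher (0.358%) and 122 lower (1.12%). Of these, 84 were also called after PHZ, 13 higher and 71 lower in both and 0 in opposite directions. They make up 52.2% of the PBS calls and 14.1% of the PHZ calls. The PBS counts leaned on single libraries, with 66 lower without Mx1-Cre replicate 1, 25 higher and 67 lower without Mx1-Cre replicate 3, and 21 higher and 69 lower without P95H replicate 5. Of the 120 genes higher after PHZ, 114 (95%) were above 0 after PBS, where 39.8% of all genes were. Of the 476 lower genes, 449 (94.3%) were below 0 after PBS, where 60.2% of all genes were. Their sizes were smaller: the median of the higher genes was 0.457 after PHZ and 0.2 after PBS, and that of the lower genes -0.298 and -0.143. The genes were chosen by their PHZ values, so this difference in size is not a comparison of the treatments.

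Several of the leading genes differed by about the same amount in the PBS mice. Rbks averaged 25.6 in Mx1-Cre and 15 in P95H after PBS (-0.73, adjusted p = 0.000157), Smo 18 and 10.2 (-0.76, adjusted p = 0.000281), and Slc25a23 9.16 and 5.18 (-0.72, adjusted p = 0.000257). Nup210 averaged 142 and 100 there (-0.49, adjusted p = 9.8e-05), and Dpp7 12.3 and 18.7 (0.57, adjusted p = 0.00446). The difference of Ccnd1 was -1.63 after PBS, from 6 to 1.18 (adjusted p = 0.000188), beside -0.82 after PHZ, and the difference of the 2 effects did not pass (adjusted p = 0.798).

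**Figure D5:**
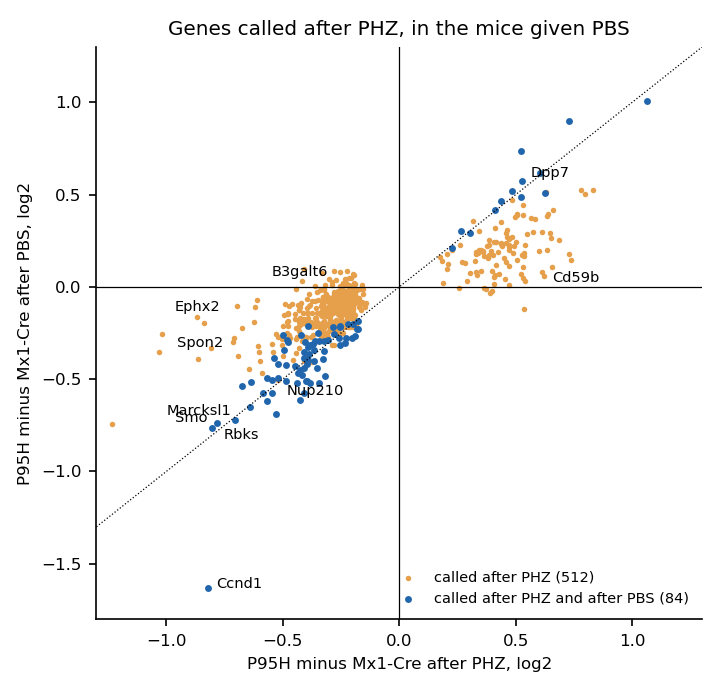
Log2 difference (P95H minus Mx1-Cre) after PBS against that after PHZ for the 596 genes called after PHZ; blue points are the 84 also called after PBS, and the dotted line marks equal differences. Most points lie in the quadrants of shared sign, 563 of 596.

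No gene passed the test of the difference between the genotype effects after PHZ and after PBS. limma called 0, and the smallest adjusted p was 0.798. An unadjusted p under 0.05 was found for 577 of the 10890 genes tested, close to the share of 0.05 that chance alone gives. The smallest p-values belonged to B3galt6, Cd59b and Rab21. B3galt6, a galactosyltransferase of proteoglycans, stood at 13.1, 11.8, 13.2, 13.2 and 13.6 in Mx1-Cre and 9.82, 10.9, 8.58, 9.46 and 7.94 in P95H after PHZ (-0.44, SE 0.0735, adjusted p = 0.00165), and averaged 12.3 and 12.2 after PBS. The groups were apart after PHZ, and the difference of the effects was -0.43 (SE 0.104, adjusted p = 0.798). For Cd59b, that difference was 0.56 (SE 0.141), with means of 7.43 and 7.82 after PBS. For the endosomal GTPase Rab21 it was -0.31 (SE 0.0804).

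Markers of other cells are given as measured beside these results, and their part in them was not tested. Megakaryocyte markers summed to 21.2 to 26.6 in Mx1-Cre and 21.8 to 28.6 in P95H. The platelet glycoprotein Gp9 was higher (3.39 ± 0.877 against 5.4 ± 1.51, 0.54, adjusted p = 0.0399). It was the only 1 of 8 to pass (12.5%, beside 5.47% of all genes) and kept the call in 4 of 10 fits without 1 library. Markers of basophils, eosinophils and mast cells summed to 1.9 to 5.29 in Mx1-Cre and 4.9 to 8.02 in P95H, with 0 of 2 measured genes called. Lymphoid markers stayed at 4.05 or below in sum and macrophage markers at 4.38 or below. With the mean log2 level of granulocyte and monocyte markers added as a covariate, 135 genes were higher and 531 lower. The female RNA Xist was expressed in 2 of 5 Mx1-Cre and 3 of 5 P95H libraries, and with Xist as a covariate 134 were higher and 493 lower.

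Mutant SRSF2 is known to favour the RNA motif CCNG over GGNG, so the coding sequences of the called genes were searched for both, on the sense strand, with overlapping matches counted. Nearly all hold both: CCNG occurs in 99.8% and GGNG in 99.9% of the 9972 protein-coding genes tested that have a sequence in GENCODE vM21. The median ratio of CCNG to GGNG was 1.12 over all of them (quartiles 0.855 and 1.43), 1.2 in the 69 stable higher genes (0.857 and 1.6) and 1.0 in the 95 stable lower genes (0.81 and 1.45). The stable lower genes had a median GC content of 56.3%, beside 52.7% in the stable higher genes and 52.6% in all. The quartiles overlapped widely, and these values are a description without a test.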

How the data were processed

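The deposited file holds an expression signal for 37748 gene entries in 20 libraries, normalised by the authors, with no read counts. Every deposited value is a whole step of 0.01 times 1 factor per library (100% of values within 0.01 of a step). The tools RSEM 1.2.4, Bowtie, TopHat2 2.0.8b and TopHat, and the builds GRCm38, mm10, GRCh37 and hg19, appear without a role in the submitters' processing notes. The sources used here do not state how the factors were obtained or whether strand was used. The labels' protocols state paired-end sequencing of sorted cells, and depth per library is unknown, so no counting interval is given.

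Symbols and positions came from GENCODE vM21 (35982 entries, with 4 named in the table and 1762 unnamed). Group means were fitted to log2(value + 1) of all 20 libraries together with limma 3.58.1 (R 4.3.3), with trended and robust moderation. Fold changes on this scale understate the change of low genes. The 3 contrasts were the genotypes after PHZ, after PBS, and their difference. TMM and median-of-ratios factors were computed directly from the values.

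Lists (55, with 1702 symbols, of which 1466 passed the filter) are described by counts and medians. Named genes were Srsf2, Fyn and 4 reported splicing targets, the 15 largest called differences in each direction with a mean of at least 5 (predicted genes, pseudogenes and receptor segments left out), up to 4 called genes of each list or up to 3 uncalled, 3 from the interaction and 5 called under both treatments. Members and lists were chosen with earlier results of these data known. Some items are not reported here. The fit was tested on simulated data. Figures used Python 3.11.15 and matplotlib 3.10.9.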

Additional observations from a re-analysis of the deposited data

Results flagged for a closer look

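In 10 of 204 groups checked (102 genes, Mx1-Cre and P95H after PHZ), 1 library stood apart from the other 4 by more than 0.71 of the group's range. Chance gives about 5% of such groups, so this number is close to what chance gives. Mx1-Cre replicate 2 was highest for Chst10 (14.2, next 8.42), and lowest for Ddx41 (52.2, next 56.1), Pelo (27.8, next 32.3) and B3galt6 (11.8, next 13.1). Mx1-Cre replicate 1 was highest for Cbfa2t3 (29, next 23.7), and Mx1-Cre replicate 5 for Hnrnpdl (322, next 302). P95H replicate 1 was highest for Pelo (31, next 25.9) and Nup210 (128, next 117). P95H replicate 2 was highest for Ccnd1 (0.623, next 0.207), and P95H replicate 5 lowest for Hnrnpdl (231, next 258).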

How the results depend on the processing

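Of the 77 called genes that the naming rule gave and that are reported, 28 (6 higher and 22 lower) were called under all 16 other settings and in all 10 fits without 1 PHZ library, while 46 lost the call in some setting and 40 in some fit without 1 library. Higher calls after PHZ numbered 120, 205 when median-centred, 343 without the filter on low values, 44 with a filter at 5, and 70 to 150 without 1 library. Lower calls numbered 476, 190 with TMM factors, 163 after quantile normalization, 123 at equal library sums, 169 with median-of-ratios factors, 150 with upper-quartile factors, 137 median-centred, 258 when the PHZ libraries alone were fitted, and 249 to 546 without 1 library. After PBS, higher calls were 39 (21 to 47 without 1 library) and lower calls 122, 78 with TMM factors, 80 after quantile normalization, 81 at equal library sums and 66 to 138 without 1 library. The causes were not tested beyond the scalings themselves and the smaller number of libraries. The difference between treatments had 0 calls in every setting run. With the replicate number as a block the calls after PHZ were 138 higher and 479 lower. Deviations of same-numbered PHZ libraries from their group means correlated at r = 0.27, -0.107, -0.196, -0.306 and 0.0522. The best match of each Mx1-Cre library was a P95H library with another number. These values have no reference distribution beside them, so they cannot settle whether the numbers pair the mice.

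Srsf2 was -0.168 (TMM), -0.149 (quantile), -0.154 (equal sums), -0.162 (median of ratios), -0.153 (upper quartile) and -0.151 (median-centred), without a call, and -0.253 to -0.202 without 1 library. Fyn turned positive in that order at 0.033, 0.0232, 0.0457, 0.0382, 0.0461 and 0.0568, at 0.0323 with library weights, and lay at -0.0549 to 0.0295 without 1 library. In the same order Ezh2 was 0.0112, 0.0334, 0.0253, 0.0171, 0.0261 and 0.028, Ints3 0.0415, 0.0609, 0.0553, 0.0473, 0.0561 and 0.059, and Bcor 0.00559, 0.0228, 0.0194, 0.0113, 0.0201 and 0.0236. Without 1 library Ints3 lay at -0.0422 to 0.0133, Bcor at -0.102 to 0.0111 and Hbb-bt at -0.0225 to 0.355. Without read counts, low genes cannot be given an error from depth.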
